A study of Mus musculus with 10 samples.

Results

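The axon guidance ligands and receptors of the mouse were taken as all genes in the count files whose symbol starts with Sema3 to Sema7, Plxn, Epha, Ephb, Efna, Efnb, Robo, Ntn or Unc5, together with Slit1, Slit2, Slit3 and Dcc. This rule uses no measured value and found 72 of 24500 genes. Of these, 37 encode ligands, 32 encode receptors, and the remaining 3 (Unc50, Unc5cl and Plxna4os1) match only by their prefix. The cells were E14 embryonic stem (ES) cells, a mouse ES line whose strain label reads 12910la. Control cells are labelled wild-type. The ex14D-Ezh2 cells (here ex14D) carry a CRISPR-Cas9 in/del in exon 14 of Ezh2 that shifts the reading frame, so that the variant without exon 14 is the functional one, and their labels name them a knock-out of that exon. The titles of these libraries read Ezh2KO, a name the study also gives to cells apart from ex14D, and they were taken as ex14D from the genotype label. ChIP-seq was done with antibodies against H3K27me3 and EZH2, which gave 2 libraries for each antibody in each genotype. Each genotype also had 1 input library, for 10 in all. The comparisons ask what the mark and the enzyme do at these genes when ES cells have only the EZH2 variant without exon 14. By Western blot the paper reports much less EZH2 protein and much less H3K27me3 in ex14D cells than in control. By ChIP-PCR it reports less H3K27me3 at selected target genes. By ChIP-seq it reports less EZH2 at target genes, most of which still carried H3K27me3 in ex14D. The variant and the amount of EZH2 therefore cannot be told apart in this design. The labels do not say whether the 2 libraries of a group came from separate cultures or clones, so p-values measure the spread between these samples, which may be technical.

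Axon guidance molecules steer growing axons and migrating cells. Semaphorins signal through plexins, in part with neuropilins as co-receptors. Ephrins bind Eph receptor tyrosine kinases and often signal in both directions. Netrins attract axons through Dcc and repel them through Unc5 receptors, and Slits repel axons through Robo receptors. In ES cells many developmental genes of this kind are silent and carry H3K27me3, which Polycomb repressive complex 2 (PRC2) places through its catalytic subunit EZH2, mostly at CpG-rich promoters. ChIP-seq measures the mark and the enzyme, not expression.

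Reads on genes numbered 594289 to 1450937 in the H3K27me3 libraries, 409371 and 416778 in the inputs, and 13628137 to 18403892 in the EZH2 libraries. H3K27me3 and input reads were counted in 1 kb windows centred on the transcription start site (TSS), and levels are given as counts per 1000000 reads on genes (CPM). A single read was worth 2.44 CPM in the control input and 2.4 CPM in the ex14D input, and the genes held a median of 19 input reads, so enrichment over input is coarse for any gene. Of all counted reads, 5.65% to 7.58% lay on genes in the H3K27me3 libraries and 1.9% and 1.92% in the inputs. CPM over genes therefore sets H3K27me3 lower against input than a scale over all counted reads would. Statements that a gene lay below input refer to this CPM scale. As a check of the cells, 7 of 8 ES cell factors that should be active (Pou5f1, Nanog, Sox2, Esrrb, Zfp42, Tfcp2l1 and Tdgf1) stayed below 2-fold over input in all 4 H3K27me3 libraries. The exception was Klf4, which had a log2 enrichment of 1.81 and 1.27 in control and of 0.23 and 0.14 in ex14D. Of all promoters, 11.3% passed 2-fold in both control libraries and 9.14% in both ex14D libraries. Most promoters thus did not pass, and 7 of 8 below the limit is a weak check of the cells. Of the 8 factors, 4 were tested for each antibody, and Klf4 was lower in ex14D in both tests (edgeR adjusted p = 0.0439 for H3K27me3 and 0.00398 for EZH2), with none of the others called.

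In control ES cells, 37 of the 72 promoters (51.4%) carried at least 2-fold more H3K27me3 than input in both libraries, against 11.3% of all promoters. Ligands and receptors shared this, with 19 of 37 and 18 of 32. Among the 37, the median log2 enrichment was 2.48, against 2.14 over all promoters that passed the same limit. In ex14D cells 33 promoters (45.8%) passed, against 9.14% of all promoters, and 31 of the 37 passed in both genotypes (83.8%, against 72.2% of all promoters that passed in control). No test was made of these counts, since each genotype had 1 input. Reads on genes were 5.65% and 5.98% of all counted reads in the control H3K27me3 libraries and 7.58% and 6.86% in ex14D. Compared with all counted reads, CPM over genes thus lowers enrichment more in ex14D than in control. The 2-fold limit was therefore stricter in ex14D, and the counts of the 2 genotypes are read with that limit. In such bulk samples, fewer cells with the mark and less mark per cell cannot be told apart. The 6 promoters that passed only in control were those of Efna2, Efnb2, Ephb2, Ntn3, Sema5a and Slit2, and Efnb1 and Epha3 passed only in ex14D.

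**Figure D1:**
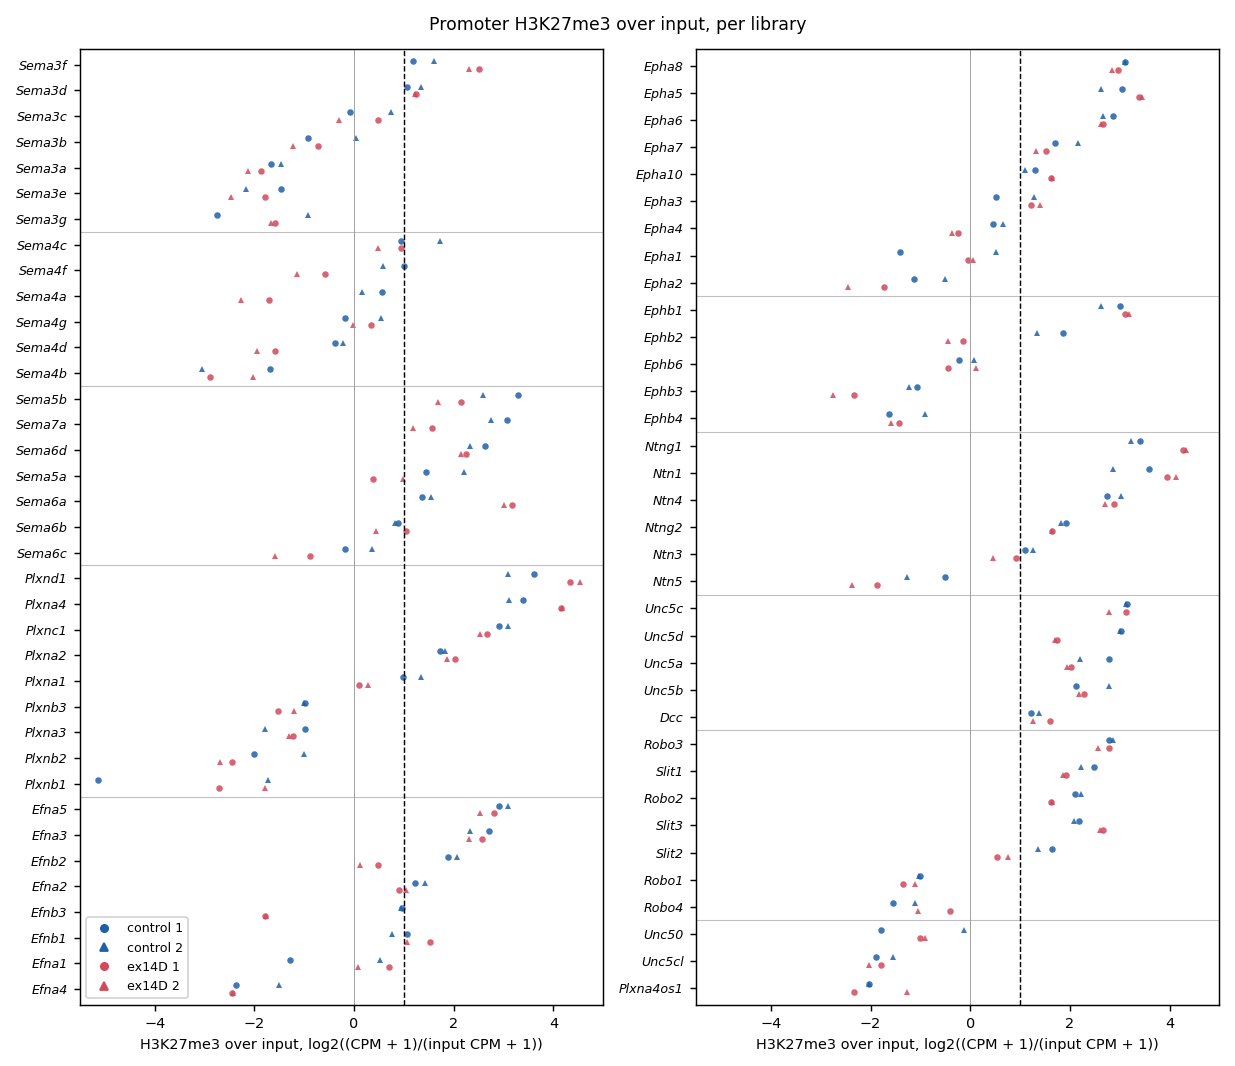
H3K27me3 over input at the 72 promoters, on the x axis as log2((CPM + 1)/(input CPM + 1)), for each of 2 control (blue) and 2 ex14D (red) libraries, with replicate 1 as circles and replicate 2 as triangles. Genes are grouped by family and ordered by their control mean. The dashed line marks the 2-fold limit, which all 5 Unc5 and Dcc promoters pass in all 4 libraries and none of the 6 Sema4 promoters passes in both libraries of a genotype.

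Among the semaphorins, 2 of 7 promoters of the secreted class 3 cues were enriched in control, and 3 of 7 (Sema3c, Sema3d and Sema3f) had a peak over the window in all 4 libraries, as did Sema3a at other start sites. Sema3f, which repels axons through neuropilin-2, was the highest of them, with log2 enrichments of 1.17 and 1.61 in control and 2.50 and 2.31 in ex14D. Its own CPM overlapped between genotypes (167 and 226 in control, 208 and 183 in ex14D), while the input was 73.3 CPM in control and 36.0 CPM in ex14D. Sema3a, the classical collapsing factor for sensory growth cones, had -1.67 and -1.47 in control, and Sema3g was lowest with -2.76 and -0.92. Both therefore lay below input in CPM over genes. Of all counted reads, Sema3a was close to input in control, at 6 of 10525739 and 11 of 15683174 against 14 of 21566935. Sema3g, with 4 and 25 reads of the same totals against 21, lay on both sides of its input. None of the 6 transmembrane class 4 semaphorins passed in either genotype. Sema4c came closest, at 0.94 and 1.73 in control, and Sema4b was lowest, at -1.70 and -3.05. In classes 5 to 7, 5 of 7 promoters were enriched in control, among them Sema5a with an input of 2.44 CPM, a single read. A peak lay over 4 of the 6 class 4 promoters and 6 of the 7 promoters of classes 5 to 7 in both control libraries, and the difference between classes was not tested. Sema5b, a transmembrane semaphorin with thrombospondin repeats, held 1033 and 634 CPM in control and 554 and 401 CPM in ex14D, against input levels of 105 and 125 CPM. The 2 ex14D libraries lay below both control libraries, but the change did not pass the test (log2 fold change -0.35 ± 0.22 SE, edgeR adjusted p = 0.409).

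Of the plexins, the semaphorin receptors, 4 of 9 promoters were enriched in each genotype (Plxna2, Plxna4, Plxnc1 and Plxnd1). Plxnd1, the receptor for Sema3e, was the highest of the 72, at a log2 enrichment of 3.61 and 3.08 in control and 4.33 and 4.53 in ex14D. The 3 class B plexins, receptors for class 4 semaphorins, were below input in CPM over genes in all 4 libraries. Plxnb1 was lowest, with 0 and 9.60 CPM in control and 7.58 and 15.2 CPM in ex14D, against input levels of 34.2 and 55.2 CPM. Plxna1, a co-receptor with neuropilin-1 for Sema3a, sat at the limit in control, at 0.98 and 1.34, and at 0.10 and 0.27 in ex14D.

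Of the 8 ephrins, 4 were enriched in control. Efna5, which maps retinal axons in the midbrain, was highest, at 2.91 and 3.09 in control and 2.80 and 2.52 in ex14D. The 4 libraries thus lay within a narrow range. Efna4 was lowest, at -2.37 and -1.50 in control. Efnb2, which marks arterial endothelium in the embryo, had 130 and 146 CPM in control and 94.4 and 72.9 CPM in ex14D. Its ex14D libraries were both lower, its input was 34.2 CPM in control and 67.2 CPM in ex14D, and the change in CPM did not pass the test (log2 fold change -0.27 ± 0.25 SE, edgeR adjusted p = 0.599). Efnb1 lies on the X chromosome and was near the limit in every library, with 1.06 and 0.76 in control and 1.53 and 1.06 in ex14D.

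Of the Eph receptors, 5 of 9 EphA promoters and 2 of 5 EphB promoters were enriched in control. Epha8 was the highest EphA gene, with 3.11 and 3.10 in control against 2.97 and 2.84 in ex14D. Epha2 was the lowest, at -1.12 and -0.51 in control. Epha4, needed for the crossing pattern of spinal and corticospinal axons, had 0.46 and 0.65 in control and -0.25 and -0.36 in ex14D. In CPM over genes it was thus below 2-fold in all 4 libraries. A called peak and an EZH2 domain nevertheless lay over its promoter in all 4. Of all counted reads it was above input in control, at 52 of 10525739 and 94 of 15683174 against 26 of 21566935. In ex14D it was above input too, at 82 of 19151253 and 65 of 18184514 against 28 of 21723106. Ephb1 was the highest EphB gene, at 3.01 and 2.61 in control. Ephb4, the partner of Efnb2 on veins, was the lowest, at -1.63 and -0.91 in control.

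Among netrins and their receptors, all 5 Unc5 and Dcc promoters and 5 of 6 netrin promoters were enriched in control. Ntng1, a membrane-anchored netrin-G that binds Lrrc4c rather than Dcc, had log2 enrichments of 3.40 and 3.22 in control and 4.27 and 4.32 in ex14D. Ntn1, the floor plate attractant, had 3.59 and 2.86 in control and 3.95 and 4.12 in ex14D. The exception was Ntn5, with -0.51 and -1.26 in control. Unc5c, a repulsive netrin receptor, was highest among the receptors, at 3.15 and 3.13 in control and 3.12 and 2.78 in ex14D. Dcc was lowest, at 1.23 and 1.38 in control against 1.6 and 1.25 in ex14D. It still passed in all 4 libraries. Unc5d showed how far the input moved single values, since its log2 enrichment was 3.02 and 3.00 in control and 1.74 and 1.71 in ex14D, while its H3K27me3 level was 185 and 184 CPM in control and 219 and 214 CPM in ex14D and its input 22.0 and 64.8 CPM.

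All 3 Slit promoters were enriched in control, as were those of Robo2 and Robo3. Slit2, the midline repellent, had 1.64 and 1.36 in control and 0.54 and 0.76 in ex14D, with H3K27me3 levels of 85.8 and 70.4 CPM in control and 63.4 and 73.7 CPM in ex14D that overlapped. Robo3, which allows commissural axons to cross the midline, was the highest gene of this system, at 2.79 and 2.86 in control and 2.78 and 2.57 in ex14D. Robo1, the main Slit receptor on many axons, was below input in CPM over genes throughout, with -1.0 and -1.03 in control against -1.36 and -1.1 in ex14D. Of all counted reads it lay above input in control, at 20 of 10525739 and 31 of 15683174 against 28 of 21566935. Robo4, which acts in endothelium, was lowest, at -1.55 and -1.11 in control.

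Peaks and domains, which the authors called in each library, gave a similar count. An H3K27me3 broad peak lay over the 1 kb promoter window in both control libraries for 47 genes (65.3%, against 18% of all placed genes), and in both ex14D libraries for 46 genes (63.9%, against 16.5%). The 43 genes with a peak in both genotypes made up 91.5% of the 47, where 83.8% of all genes with a control peak had a peak in ex14D. An EZH2 domain lay over the window in both control libraries for 48 genes (66.7%, against 16.8%), and in both ex14D libraries for 38 genes (52.8%, against 10.4%). The 38 were among the 48 (79.2%, where over all genes 61.9% were kept). Peak and domain coincided for 45 genes in control. Of the 10 genes whose domain was not found in both ex14D libraries, 8 had a domain in neither (Dcc, Epha3, Ntng2, Sema3c, Sema4d, Sema4f, Sema4g and Sema6c), and Ntng2 and Dcc remained enriched for H3K27me3 in both ex14D libraries. The longest H3K27me3 peak over these promoters was that of Ntn1 in each library, of 22435 and 24255 bp in control and 22887 and 24801 bp in ex14D. Over the peaks of the genes with one, the median width was 5504 and 7239 bp in control and 5900 and 4756 bp in ex14D. The fold enrichment that the peak caller gave over Plxnd1 was 8.0 and 8.13 in control and 23.6 and 32.8 in ex14D. Its median over the genes with a peak was 3.35 and 3.35 in control and 4.41 and 4.55 in ex14D. Single values could differ widely between replicates, as for Ephb1 with 1.72 and 32.1 in ex14D.

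The marked promoters were CpG-rich. The ratio of observed to expected CpG in the 1 kb window had a median of 0.76 for the 37 genes enriched in control and of 0.675 for the other 35, against 0.539 over all 24332 windows placed on the genome. Of the 37, 28 (75.7%) had a ratio of at least 0.6, as had 22 of the other 35 (62.9%). Over all genes, 71.8% of enriched promoters, 41.6% of those not enriched and 45.1% of all windows reached that ratio. Across the 72 genes, which share libraries and input, CpG ratio and control enrichment had a Spearman correlation of 0.47, and across all windows 0.02, given as descriptions. CpG-rich promoters were found with and without the mark. Unc5b (0.98), Plxnc1 (0.976) and Plxna1 (0.97) had the highest ratios, and of these Plxna1 missed the 2-fold limit by a small margin. Plxnb1 and Plxnb2 had ratios of 0.881 and 0.826 and no enrichment. Sema3a (0.0687), Plxnb3 (0.0996) and Plxna4os1 (0.14) had the lowest ratios, and none of them was enriched. In the other direction, Ntng2 was enriched in all 4 libraries at a ratio of 0.275.

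**Figure D2:**
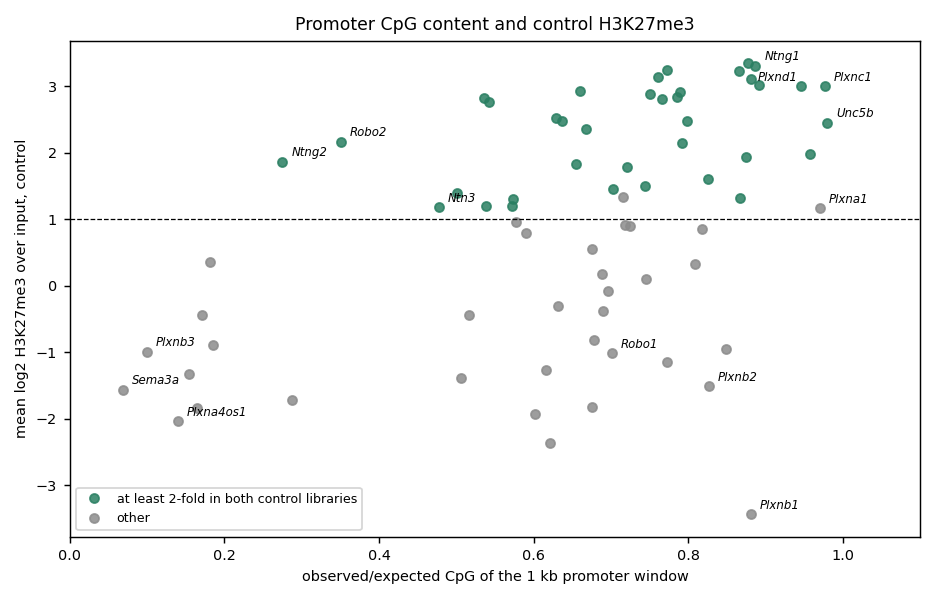
Mean log2 enrichment of H3K27me3 over input in the 2 control libraries (y axis) against the observed to expected CpG ratio of the 1 kb promoter window (x axis), 1 point per gene for 72 genes. Green points passed 2-fold in both control libraries (dashed line), with medians of 0.76 for the green and 0.675 for the grey points, and Plxnb1 at 0.881 is the lowest point of all.

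Promoter sequences show in letters that CpG-rich promoters occurred with and without the mark. The sequences come from RefSeq (build GRCm38.p6), which had an entry for 61 of the 72 genes, and end at the base before the start site. Capitals mark every CG, a motif that reads the same on both strands. Over 32851 RefSeq promoters, 92.1% hold at least 1 CG in these 250 bases, the median is 6, and 17.9% hold at least 20. Over the 77 entries of the axon guidance genes the median is 15. Plxnd1 and Ntng1 were heavily marked and higher in ex14D, Ephb2 was marked and lower in ex14D, and Plxnb1 was CpG-rich without the mark. Plxnd1 (chr6:115995006-115995255, minus strand) holds 16 CG, Ntng1 (chr3:110143473-110143722, minus strand) 25, Ephb2 (chr4:136836013-136836262, minus strand) 20 and Plxnb1 (chr9:109095186-109095435, plus strand) 30. The unmarked Plxnb1 promoter thus held the most CG of the 4.
Plxnd1: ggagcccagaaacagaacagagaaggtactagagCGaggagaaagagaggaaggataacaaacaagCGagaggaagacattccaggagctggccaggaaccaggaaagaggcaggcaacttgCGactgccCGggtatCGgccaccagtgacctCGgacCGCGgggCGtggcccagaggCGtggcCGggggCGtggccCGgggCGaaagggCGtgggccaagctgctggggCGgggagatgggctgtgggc
Ntng1: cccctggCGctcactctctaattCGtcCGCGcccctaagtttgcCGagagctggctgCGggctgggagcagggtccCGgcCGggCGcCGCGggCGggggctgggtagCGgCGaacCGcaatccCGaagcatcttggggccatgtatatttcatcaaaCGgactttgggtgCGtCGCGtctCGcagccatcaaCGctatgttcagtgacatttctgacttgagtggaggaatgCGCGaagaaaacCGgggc
Ephb2: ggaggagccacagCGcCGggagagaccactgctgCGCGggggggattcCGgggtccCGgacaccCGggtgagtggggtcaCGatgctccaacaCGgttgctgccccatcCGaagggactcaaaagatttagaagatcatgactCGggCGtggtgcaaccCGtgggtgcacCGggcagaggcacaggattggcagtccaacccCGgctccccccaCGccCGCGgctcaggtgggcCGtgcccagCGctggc
Plxnb1: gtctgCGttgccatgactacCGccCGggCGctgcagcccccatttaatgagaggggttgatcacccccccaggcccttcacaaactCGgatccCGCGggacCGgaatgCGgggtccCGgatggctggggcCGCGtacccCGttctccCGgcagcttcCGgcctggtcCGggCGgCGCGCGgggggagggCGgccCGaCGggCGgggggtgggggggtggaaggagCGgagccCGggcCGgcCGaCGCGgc

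Robo2, the remaining Slit receptor with a strong mark, has several starts, and they differ. Its H3K27me3 level was 150 and 164 CPM in control and 157 and 159 CPM in ex14D, with log2 enrichments of 2.1 and 2.23 in control and 1.62 and 1.64 in ex14D, yet no peak lay over the most 5′ RefSeq start. A peak was present in all 4 libraries over a start 1035468 bp downstream. The methods place the counting windows at the most 5′ start, but the annotation they came from was not used here, and which Robo2 start the counts refer to was not tested. The 250 bases before the most 5′ start (chr16:75447294-75447543, minus strand) hold 8 CG and those before the downstream start (chr16:74411826-74412075, minus strand) hold 14.
Robo2, most 5′ start: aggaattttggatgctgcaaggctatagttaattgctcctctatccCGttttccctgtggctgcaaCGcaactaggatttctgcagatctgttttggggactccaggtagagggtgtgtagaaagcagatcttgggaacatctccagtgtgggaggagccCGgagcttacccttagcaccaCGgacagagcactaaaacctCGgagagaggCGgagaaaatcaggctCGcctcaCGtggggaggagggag
Robo2, downstream start: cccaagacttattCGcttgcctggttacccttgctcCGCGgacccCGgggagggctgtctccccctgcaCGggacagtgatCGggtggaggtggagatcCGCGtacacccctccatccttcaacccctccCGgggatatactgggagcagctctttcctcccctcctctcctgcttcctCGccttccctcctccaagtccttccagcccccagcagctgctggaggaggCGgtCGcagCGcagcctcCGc

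H3K27me3 was compared between genotypes with edgeR over 14883 promoters, of which 70 belonged to the axon guidance genes (Plxna3 and Unc50 did not pass the filter on low counts). The mark was lower in ex14D at 4 genes (5.71%, against 3.19% of all promoters tested) and higher at 9 genes (12.9%, against 5.85%). The median log2 fold change was 0.25 over the 70 genes and -0.02 over all promoters. The ligands Sema6a, Ntng1 and Ntn1 and the receptors Plxnd1, Epha5, Plxna4, Unc5d, Ephb1 and Unc5b were higher, and the ligands Efnb3, Sema4a and Sema4d and the receptor Ephb2 were lower. All 9 higher genes were enriched over input in control and had a control EZH2 domain. Among the 37 genes enriched in control, 9 were higher (24.3%) and 1 was lower (2.7%). Among all 2658 tested promoters enriched in control, 28.6% were higher and 4.7% lower. The share of higher genes among marked axon guidance promoters was thus close to that of marked promoters in general. Of the 33 tested genes not enriched in control, 3 were lower (9.09%, against 2.86% of all such promoters) and 0 were higher (against 0.916%).

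Fold changes are relative to the scaling of the libraries by TMM, which centred the median promoter near 0. CPM values are not scaled this way, and the log2 fold change of a gene therefore lies above the ratio of its CPM. With library size as the only scaling, the median over all promoters was -0.47 and that over the axon guidance genes -0.2, and 11 genes were lower and 3 higher. Plxnd1, Ntng1 and Sema6a were the 3, and Efnb3, Sema4a, Sema4d and Ephb2 were among the 11. With all counted reads as library size, 4 genes were lower and 5 higher. Whether the mark at these genes rose or fell in absolute terms cannot be told apart from these counts, and the statements below are relative to the other promoters.

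**Figure D3:**
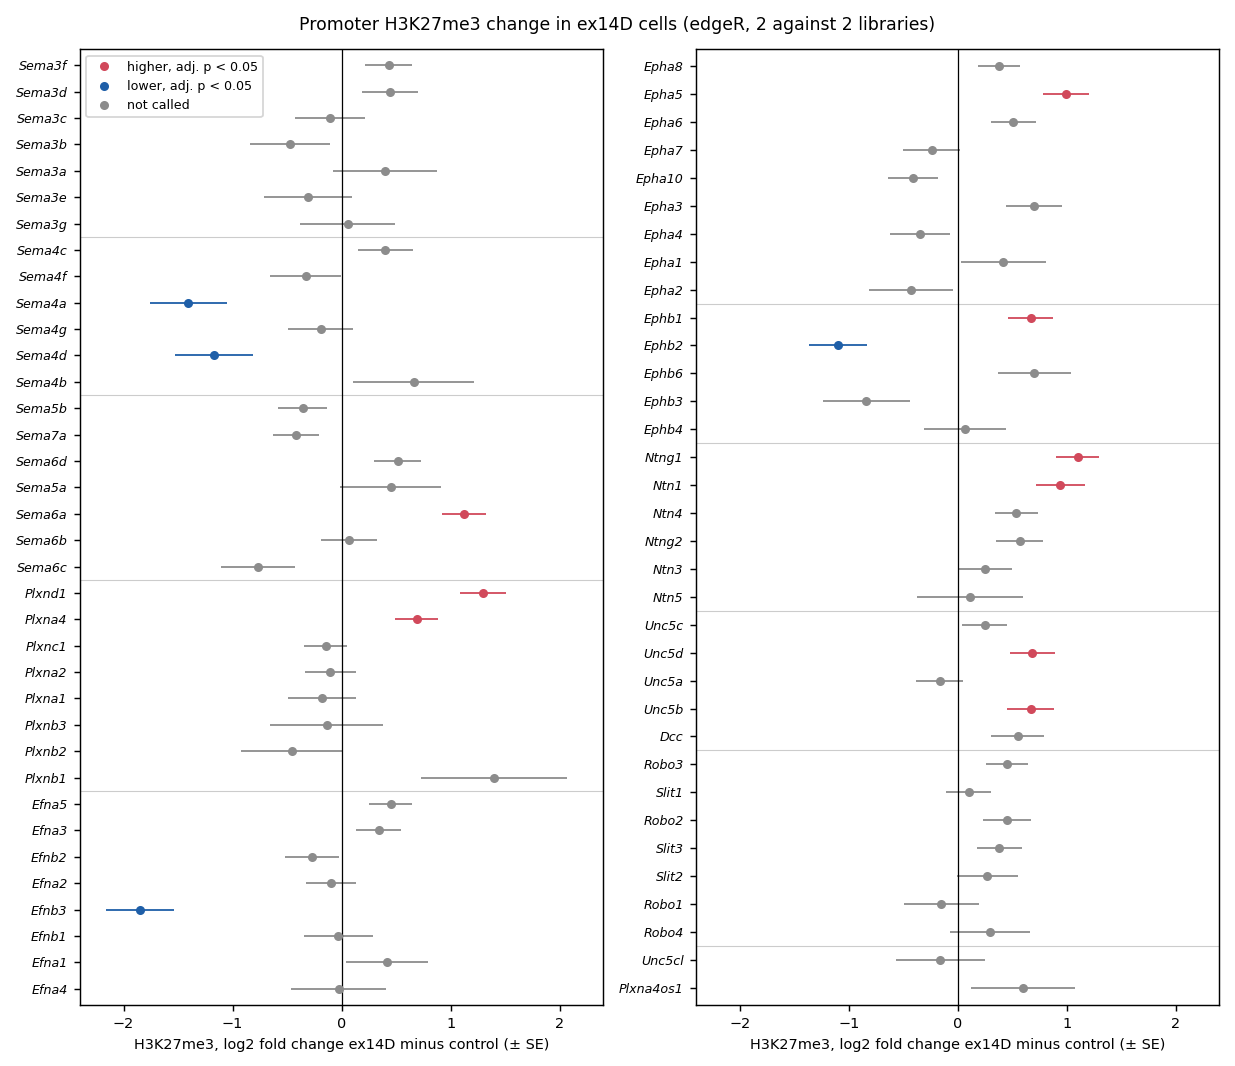
log2 fold change of promoter H3K27me3 (ex14D minus control, edgeR with TMM, bars are SE) for the 70 genes tested, grouped by family. Red points are the 9 genes with higher and blue points the 4 genes with lower H3K27me3 in ex14D at an adjusted p under 0.05.

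Plxnd1 held 458 and 318 CPM in control and 645 and 744 CPM in ex14D. The ex14D libraries were both above the control libraries, and the log2 fold change was 1.30 ± 0.21 (SE; edgeR adjusted p = 0.000143). Sema6a, a transmembrane ligand of class A plexins, held 195 and 223 CPM in control and 352 and 317 CPM in ex14D. The groups did not overlap (log2 fold change 1.12 ± 0.20, edgeR adjusted p = 0.000414), and its input was 75.7 CPM in control and 38.4 CPM in ex14D. Ntng1 rose from 397 and 349 CPM to 573 and 595 CPM (log2 fold change 1.1 ± 0.20, edgeR adjusted p = 0.000417). These 3 genes passed the threshold under every scaling and test tried with all libraries, and the other 6 did not. Without control replicate 2, the log2 fold changes of Plxnd1, Sema6a and Ntng1 were 1.0, 1.18 and 0.96, and the calls of Plxnd1 and Ntng1 were lost.

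Epha5, an EphA receptor of the brain, held 291 and 217 CPM in control and 361 and 374 CPM in ex14D (log2 fold change 0.99 ± 0.21, edgeR adjusted p = 0.00206). Ntn1 held 715 and 432 CPM in control and 755 and 851 CPM in ex14D (0.94 ± 0.22, edgeR adjusted p = 0.00623). Plxna4, which acts in sensory axons, held 496 and 407 CPM in control and 530 and 534 CPM in ex14D (0.69 ± 0.20, edgeR adjusted p = 0.0256). In these 3 genes ex14D was above control in every pair of libraries, with the control replicates further apart than the ex14D replicates. Unc5d did not overlap between genotypes either, as given above (0.68 ± 0.21, edgeR adjusted p = 0.0364). Ephb1 held 342 and 259 CPM in control and 339 and 357 CPM in ex14D (0.67 ± 0.21, edgeR adjusted p = 0.0389). Unc5b held 195 and 308 CPM in control and 307 and 285 CPM in ex14D (0.67 ± 0.21, edgeR adjusted p = 0.0494). The CPM of Ephb1 and Unc5b overlapped between genotypes, and neither call was made with library size as the only scaling.

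Efnb3, a midline ephrin of the spinal cord, showed the largest fall of the 70 genes. It held 111 and 109 CPM in control and 22.1 and 22.4 CPM in ex14D (log2 fold change -1.85 ± 0.31, edgeR adjusted p = 0.000193). Replicates were nearly equal, and the ex14D level lay below the input level of 79.2 CPM. Of all counted reads it was close to input, at 32 of 19151253 and 28 of 18184514 against 33 of 21723106. Its promoter was close to the 2-fold limit in control, at log2 enrichments of 0.97 and 0.94, and had no EZH2 domain in any library. Sema4a, known from immune cells and the retina, held 72.4 and 54.4 CPM in control and 20.7 and 13.6 CPM in ex14D (-1.41 ± 0.35, edgeR adjusted p = 0.00978), and its window lay in a peak in both control libraries and in neither ex14D library. Sema4d, the ligand of Plxnb1, held 35.3 and 39.5 CPM in control and 13.8 and 10.4 CPM in ex14D (-1.17 ± 0.36, edgeR adjusted p = 0.0358), below the input CPM in all 4 libraries. Of all counted reads, Sema4d lay above input in control, at 21 of 10525739 and 37 of 15683174 against 19 of 21566935. Efnb3, Sema4a and Sema4d were not enriched in control under the 2-fold limit in CPM over genes.

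Ephb2, a receptor of commissural and retinal axons, was the only gene enriched in control that fell with TMM. With library size as the only scaling, Epha10, Plxnc1, Sema5b, Sema7a and Unc5a, also enriched in control, were lower as well. Ephb2 held 197 and 138 CPM in control and 62.7 and 50.5 CPM in ex14D, against inputs of 53.7 and 69.6 CPM (log2 fold change -1.1 ± 0.26, edgeR adjusted p = 0.00703). In CPM over genes the mark was thus near the input level in ex14D. Of all counted reads it was above input there, at 91 of 19151253 and 63 of 18184514 against 29 of 21723106. A called peak and an EZH2 domain lay over the promoter in all 4 libraries. The EZH2 domain measured 4000 bp in each control library and 2000 bp in each ex14D library. Ephb2, Efnb3 and Sema4a passed under every scaling and test tried with all libraries. The calls of Ephb2 and Sema4a were lost without either ex14D replicate, at log2 fold changes of -1.26 and -0.95 for Ephb2 and -1.74 and -1.15 for Sema4a. Sema4a was also lost without control replicate 2 (-1.66). Leaving out control replicate 2 left 2 lower and 1 higher gene, leaving out ex14D replicate 1 left 1 and 5, leaving out ex14D replicate 2 left 1 and 3, and leaving out control replicate 1 left 5 and 8.

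**Figure D4:**
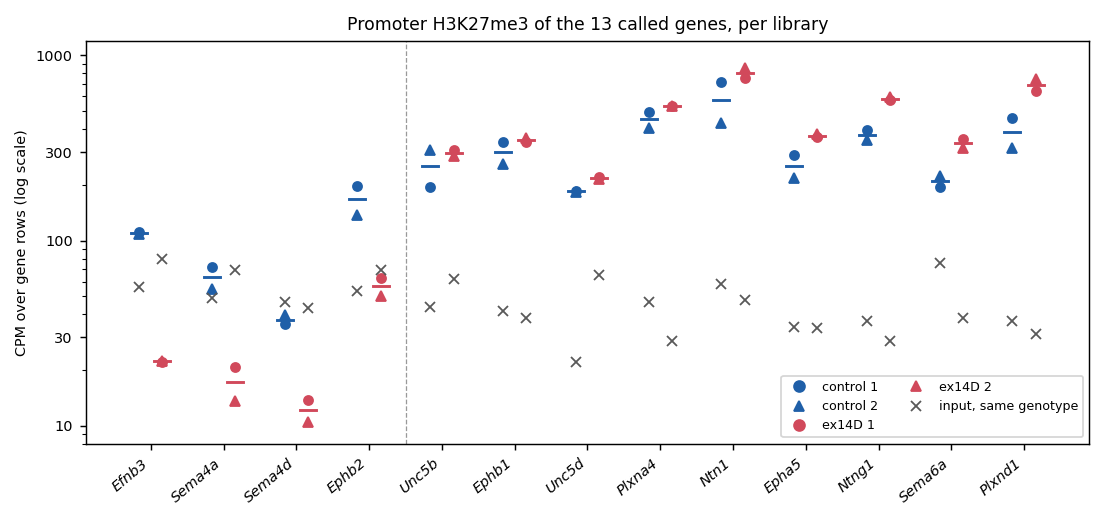
H3K27me3 CPM (y axis, log scale) in each library for the 13 genes that passed the test, ordered by fold change, with control in blue and ex14D in red, replicate 1 as circles, replicate 2 as triangles, group means as bars and the input of the same genotype as crosses. The 4 genes left of the dashed line were lower in ex14D. Efnb3 at 22.1 and 22.4 CPM falls below its input of 79.2 CPM on this scale of reads on genes, but not as a share of all counted reads.

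EZH2 counts had another basis. Across 13864 placed genes with a count, the control EZH2 level had a Spearman correlation of 0.89 with gene length, against 0.15 for H3K27me3 across 22925 genes, so EZH2 reads appear to have been counted over whole genes, and levels of different genes are compared per kb only. Reads on more than 1 counted interval, 21.2% to 21.9% of each EZH2 library, were assigned to no gene. Of the axon guidance genes, 24 (33.3%, against 43.2% of all genes) have a listed count of 0 in every EZH2 library and were not tested, among them Ntn1, Dcc, Slit1, Slit3, Robo1, Robo2, Efna5 and Unc5b. An EZH2 domain nevertheless lay over the promoter of 17 of these 24 in both control libraries and of 13 in all 4.

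Of the 47 genes tested, EZH2 was lower in ex14D at 16 (34.0%, against 7.88% of 13401 genes) and higher at 0 (against 0.0522%, edgeR). No gene was higher at an unadjusted p under 0.05 either, nor by DESeq2, and 19 were lower at that level. The median log2 fold change was -0.07 over the 47 genes and 0.02 over all genes. The 16 were 11 ligands (Ntn3, Efna3, Sema6c, Sema3f, Sema4c, Sema7a, Sema5b, Sema3b, Efna1, Efnb2 and Slit2) and 5 receptors (Robo3, Epha8, Plxnd1, Unc5a and Epha7), and in each of them both ex14D libraries lay below both control libraries. Of the 31 tested genes with a control domain 15 were lower (48.4%, where all 2413 such genes gave 39.0%), and of the 16 without one 1 was, Sema3b.

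Ntn3, a netrin of sensory ganglia, had the largest fall, from 24.5 and 29.9 CPM to 14.5 and 9.5 CPM (log2 fold change -1.25 ± 0.18, edgeR adjusted p = 0.00764). Efna3 fell from 88.7 and 107 CPM to 56.1 and 37.7 CPM (-1.11 ± 0.17, edgeR adjusted p = 0.00969), and had the highest control level per kb of the genes tested, 10.8 CPM per kb against 5.19 CPM per kb in ex14D. In both genes the ex14D replicates differed more than the control replicates. Sema6c fell from 66.1 and 66.2 CPM to 38.2 and 30.7 CPM (-0.99 ± 0.10, edgeR adjusted p = 0.00342). Sema3f went from 96.7 and 105 CPM to 58.8 and 52.7 CPM (-0.90 ± 0.07, edgeR adjusted p = 0.00325). Sema4c (-0.83 ± 0.11) and Robo3 (-0.74 ± 0.09) followed. These 6 genes passed under every scaling and test tried with all libraries, as did Sema5b, Sema7a and Unc5a.

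Of the 16 genes with lower EZH2, 12 were enriched for H3K27me3 in control, against 11.3% of all promoters. With TMM, 15 of the 16 passed no H3K27me3 test in either direction. Over all promoters tested, 3.19% were lower and 5.85% higher, and among those enriched in control 4.7% and 28.6%. Most promoters thus passed no such test either, and the count of 15 says little about these genes. With library size as the only scaling, Sema7a, Sema5b, Sema6c and Unc5a were lower for H3K27me3 too (edgeR adjusted p = 0.00679, 0.0102, 0.0188 and 0.047), and in each of these genes both ex14D libraries lay below both control libraries. Efna3 had H3K27me3 levels of 326 and 250 CPM in control and 289 and 242 CPM in ex14D (log2 fold change 0.34 ± 0.21, edgeR adjusted p = 0.39). Robo3 had 394 and 415 CPM in control and 436 and 375 CPM in ex14D (0.45 ± 0.19, edgeR adjusted p = 0.173). Efna3 and Robo3 each overlapped between genotypes. A p that misses the threshold does not show that the mark was the same. With TMM, Plxnd1 was the only gene called for both antibodies, with more H3K27me3 over the promoter and less EZH2 over the gene, from 189 and 175 CPM to 152 and 119 CPM (log2 fold change -0.47 ± 0.10, edgeR adjusted p = 0.0358). The EZH2 call of Plxnd1 was lost by DESeq2 (adjusted p = 0.0558) and without either control replicate (edgeR adjusted p = 0.412 and 0.298). Its H3K27me3 call passed under every scaling and test tried with all libraries, and was lost without control replicate 2 (edgeR adjusted p = 0.0635).

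The EZH2 falls were concentrated in short genes. The 16 genes with lower EZH2 had a median length of 25.1 kb, against 193 kb for the 16 genes with a control domain that passed no test. Among genes with a control domain, 11 of 13 shorter than 50 kb were lower (84.6%, with 55.1% over all 1422 such genes), and 4 of 18 longer ones (22.2%, with 15.8% over all 991). Length and log2 fold change had a Spearman correlation of 0.67 over the 31 genes with a domain and 0.74 over all 2413, as a description. Per kb, the 16 lower genes had a median control level of 2.57 CPM per kb and a median of 1.63 CPM per kb in ex14D. The uncalled genes with a domain had 0.937 CPM per kb in control, close to the 0.958 CPM per kb of uncalled genes with no domain in both control libraries. Unc5c, 369 kb long with a domain of 3000 to 5000 bp, had 302 and 309 CPM in control and 313 and 315 CPM in ex14D (log2 fold change -0.00 ± 0.03). A domain covers little of such a gene, and how much EZH2 at its promoter changed was not detectable from these counts. Slit2 was the longest gene called, at 325 kb, with 328 and 315 CPM in control and 291 and 285 CPM in ex14D (log2 fold change -0.20 ± 0.04, edgeR adjusted p = 0.0152).

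**Figure D5:**
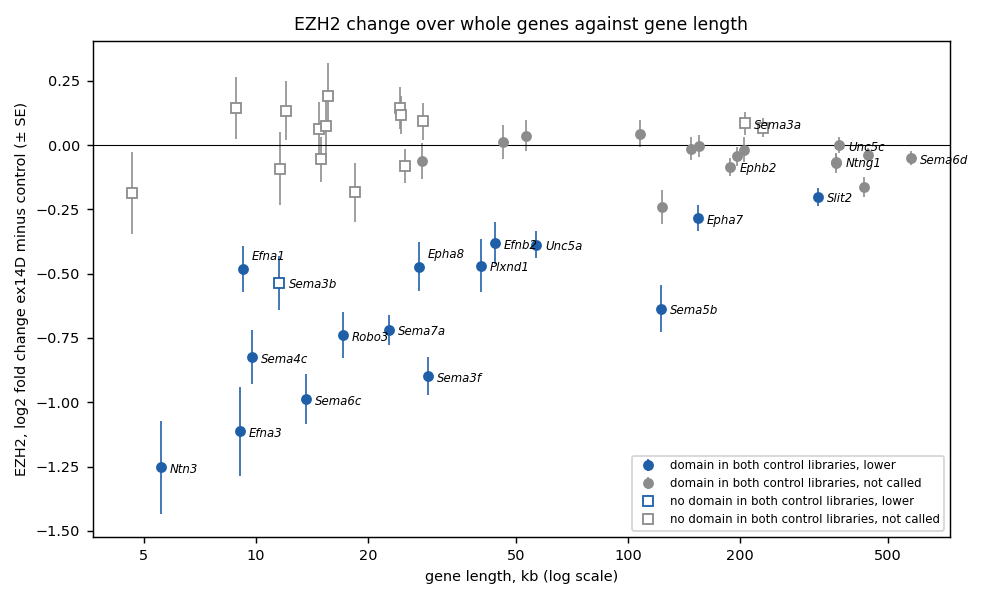
log2 fold change of EZH2 over whole genes (ex14D minus control, edgeR, bars are SE) against gene length in kb on a log axis, for the 47 genes tested. Blue symbols are the 16 genes with lower EZH2 in ex14D, grey symbols were not called, and filled circles had an EZH2 domain over the promoter in both control libraries. Ntn3, the shortest called gene, falls furthest, and genes of 200 kb or more lie near 0 apart from Slit2 and Ephb1.

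Leaving out either control library ended every EZH2 call of edgeR, over all genes. Without control replicate 1, 16 axon guidance genes were lower at an unadjusted p under 0.05 with a smallest adjusted p of 0.155, and without control replicate 2 there were 17 with a smallest adjusted p of 0.179. Without ex14D replicate 1, 21 genes were lower, and without ex14D replicate 2, 19 were. DESeq2 called 9 genes.

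Other genes of axon guidance were read from a list of 18 co-receptors and further cues and a list of 28 intracellular effectors. Of the co-receptors and cues, 12 of 18 were enriched for H3K27me3 in control (against 11.3% of all promoters). In ex14D 3 of 18 were higher (Nrp2, Dscaml1 and Flrt2), against 5.85% of all promoters tested and 28.6% of those enriched in control. A single gene was lower (Lrrc4), against 3.19% and 4.7%, and the median log2 fold change was 0.39. Nrp2, the neuropilin that binds Sema3f, held 246 and 310 CPM in control and 294 and 405 CPM in ex14D, which overlapped (log2 fold change 0.78 ± 0.21, edgeR adjusted p = 0.0195). Its EZH2 level fell from 238 and 224 CPM to 180 and 160 CPM (log2 fold change -0.48 ± 0.06, edgeR adjusted p = 0.00639). Lrrc4, a partner of netrin-G2, held 197 and 204 CPM in control and 64.1 and 48.9 CPM in ex14D (-1.37 ± 0.25, edgeR adjusted p = 0.000392). An EZH2 domain lay over the promoters of 14 of the 18 in both control libraries. EZH2 was lower at 5 of the 11 tested genes of this list, against 7.88% of all genes tested and 39.0% of those with a control domain, and higher at 0 by edgeR. Effectors had the mark at 5 of 28 promoters in control, against the same 11.3%, and a control EZH2 domain at 14 of 28. EZH2 was lower at 3 of 18 tested (Dpysl4, Crmp1 and Ngef), against the same 7.88% and 39.0%, and higher at 0 by edgeR.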

How the data were processed

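H3K27me3, EZH2 and input ChIP-seq libraries of control and ex14D cells were grouped by the genotype and antibody in their labels, and the library titled as a misspelled wild-type input was taken as the control input. The members and lists were chosen with earlier results of these data known. The authors aligned reads to mm10 with Bowtie (Bowtie2 in the submitters' processing notes), counted them with htseq-count and deposited whole read counts per gene without normalization. Peaks (MACS2) and domains (hiddenDomains) were called by the authors for each library. Of the peak files, the deposited fold enrichment (a ratio to background) and −log10 q were used, and of the EZH2 domain files only the positions. The domain files of the H3K27me3 libraries were not used, because intervals on 8 chromosomes in each pass the end of the GRCm38 chromosome.

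Reads on no gene (33.8% to 34.9% of EZH2 libraries, 92.0% to 94.0% of H3K27me3 libraries, 97.9% and 98.0% of inputs) stayed out of library sizes. Genes were placed with curated RefSeq transcripts of GRCm38.p6 (24332 of 24500). Counts of ex14D and control were compared with edgeR 4.0.16 in R 4.3.3 (TMM, filterByExpr, quasi-likelihood F test, Benjamini-Hochberg over all genes tested, threshold 0.05), and the procedure was tested on simulated data. Approximate standard errors were derived from each log2 fold change and its F statistic, as their ratio with the root of F. Enrichment is log2((CPM + 1)/(input CPM + 1)) against the input of the same genotype. Intervals were assigned by an overlap of at least 1 bp with the 1000 bp window around the most 5′ start. Alternatives covered scaling, DESeq2 1.42.0, filters, pseudocounts, windows, thresholds and each library left out. Genes were named by a rule: the highest and lowest control enrichment of each family, the 6 largest falls and rises per antibody among called genes with 1 direction in all library pairs, textbook members, members of classes of 5 or fewer, and the extremes of CpG content. Genes in counts of more members, the co-receptors and Robo2's starts were named after their values were seen. The H3K27me3 test of the list of effectors is not reported here.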

Additional observations from a re-analysis of the deposited data

How the results depend on the processing

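Scaling decided the balance of H3K27me3 calls. With library size only, 11 genes were lower, 3 were higher and the median change became -0.2, while over all promoters 2176 were lower and 398 higher, against 475 and 871. With all counted reads as library size (median of all promoters -0.15) 5 genes were higher. Leaving out single libraries gave 1 to 5 lower and 1 to 8 higher genes, with medians of 0.07 to 0.28. For EZH2, DESeq2 called 9 genes lower, leaving out single libraries gave 0 to 21, and the median change was -0.03 when only library size scaled the counts, -0.04 for all counted reads, -0.11 when centred on genes without a control domain and -0.11 to -0.05 with a library left out. At least 4-fold over input left 23 genes in control and 19 in ex14D, and peaks with q under 0.001 left 25 and 30. Enrichment and interval counts otherwise stayed within 1.5 times, leaving out a library included. Same-numbered libraries did not deviate together (correlations of -0.104 for H3K27me3 and -0.0317 for EZH2). With 2 libraries per group this cannot show whether they shared a culture or a day, and the labels do not say. With the replicate block, 3 genes were lower and 5 higher for H3K27me3 and 14 lower for EZH2. Of 290 fold changes of single called genes under alternatives, 199 passed the threshold, 91 did not and 0 changed sign, and no cause was tested. Input depth limits enrichment, and EZH2 counts over whole genes limit what can be seen at long genes.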

Other observations

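For 16 of the 72 genes RefSeq lists further curated starts. An H3K27me3 peak lay over any of its starts in all 4 libraries for 45 genes, against 43 for the most 5′ start. The 2 additional genes were Robo2 and Sema3a. For Sema3a, a peak was present in all 4 libraries over starts 2213 and 2525 bp from the most 5′ start, where neither a peak nor enrichment was found, and no EZH2 domain lay over any of them. The windows of 2 genes, Sema5a and Unc50, overlap that of a neighbour, and reads on both windows were assigned to neither. Sema5a held 8.41 and 14.9 CPM of H3K27me3 in control and 9.65 and 15.2 CPM in ex14D, with inputs of 2.44 and 7.2 CPM.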
